A study of Mus musculus with 24 samples.

Results

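The glycolysis and hypoxia genes are a list of 40 mouse genes that encode glucose and lactate carriers, the enzymes of glycolysis, the hypoxia-inducible factor HIF-1α, its hydroxylases, other hypoxia-inducible genes and 2 enzymes of glycogen synthesis. Members were found by matching gene symbols to rows on a numbered chromosome or X in 3 deposited tables of normalized RNA sequencing counts. All 40 were present, each once, among 47372 genes. A normalized count is the authors' gene count divided by 1 size factor per library. The filter on low values, applied to each table by itself, kept 39 members each time. It asked for at least 10 normalized counts in at least 3 of 12 libraries. Adm, which encodes the peptide adrenomedullin, did not pass, and had 0 to 8.79 normalized counts in the 24 libraries.

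The study asked which gene expression in bone-marrow-derived macrophages depends on the liver X receptors (LXR), nuclear receptors for oxidized sterols. The DKO mice lacked both LXRα and LXRβ and are labelled LXR negative, and the comparison mice are labelled LXR positive. Both were labelled C57BL/6J and 8 to 12 weeks old, and each genotype had 3 mice. Marrow cells were cultured in medium conditioned by L929 cells, a fibroblast line that secretes macrophage colony-stimulating factor, and the medium was renewed after 4 days. Cells of each of the 6 mice received kdo2-lipidA (KLA), a ligand of Toll-like receptor 4 related to bacterial endotoxin, at 100 ng/ml, the synthetic LXR agonist GW3965 at 1 µM, acetylated LDL (AcLDL), a modified lipoprotein that macrophages take up through scavenger receptors, at 50 µg/ml, or vehicle. KLA, GW3965 and vehicle were given on day 5 for 17 hours, while the labels state no duration for AcLDL. This gave 8 groups of 3 libraries, 1 library per mouse and treatment. The same 6 vehicle libraries serve all 3 treatments. The sources used here name no Cre driver or other allele for either genotype.

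Glycolysis splits glucose into pyruvate, and lactate dehydrogenase turns pyruvate into lactate, which leaves the cell through monocarboxylate carriers. HIF-1α is a transcription factor that is hydroxylated and degraded when oxygen is present. When it accumulates, in low oxygen or in macrophages exposed to endotoxin, it pairs with ARNT and binds DNA at the core letters ACGTG or GCGTG, near genes for glucose uptake, glycolysis and blood vessel growth. Macrophages activated through Toll-like receptor 4 are known for raised glucose uptake and lactate release.

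The promoters of 4 members are shown because they span the range of core matches and belong to genes on which the results turn. They run from 250 bases before to 50 bases after the annotated start of the gene, are written 5′ to 3′ on the gene's strand, and are taken from RefSeq (build GRCm38.p6). Capitals mark ACGTG or GCGTG or their reverse complements CACGT or CACGC, with overlapping matches merged. Pgk1, phosphoglycerate kinase, has 2 matches (chrX:106186850-106187149, plus strand). Ldha, lactate dehydrogenase A, has 5 in 1 of its 2 RefSeq windows (chr7:46845554-46845853, plus strand). Egln3, a HIF prolyl hydroxylase, has 1 (chr12:54203825-54204124, minus strand), and Gys1, glycogen synthase 1, has 0 (chr7:45434589-45434888, plus strand).
Pgk1: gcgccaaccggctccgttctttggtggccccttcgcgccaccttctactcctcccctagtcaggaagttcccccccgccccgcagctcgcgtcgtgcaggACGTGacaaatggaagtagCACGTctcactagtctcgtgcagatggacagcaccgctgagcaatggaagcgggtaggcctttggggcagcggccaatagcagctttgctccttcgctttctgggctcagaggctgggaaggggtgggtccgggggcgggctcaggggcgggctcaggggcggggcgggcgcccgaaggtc
Ldha: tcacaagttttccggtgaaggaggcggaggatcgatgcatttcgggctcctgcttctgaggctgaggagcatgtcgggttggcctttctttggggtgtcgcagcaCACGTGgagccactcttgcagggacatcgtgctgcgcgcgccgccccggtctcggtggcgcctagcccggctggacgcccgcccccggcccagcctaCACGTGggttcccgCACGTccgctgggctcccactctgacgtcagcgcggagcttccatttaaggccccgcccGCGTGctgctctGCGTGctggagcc
Egln3: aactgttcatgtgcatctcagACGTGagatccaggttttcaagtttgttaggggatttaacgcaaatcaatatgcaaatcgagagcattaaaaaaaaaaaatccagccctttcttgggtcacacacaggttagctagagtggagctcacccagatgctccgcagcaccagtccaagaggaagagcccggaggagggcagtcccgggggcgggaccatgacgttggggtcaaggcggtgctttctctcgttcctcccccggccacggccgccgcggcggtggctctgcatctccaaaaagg
Gys1: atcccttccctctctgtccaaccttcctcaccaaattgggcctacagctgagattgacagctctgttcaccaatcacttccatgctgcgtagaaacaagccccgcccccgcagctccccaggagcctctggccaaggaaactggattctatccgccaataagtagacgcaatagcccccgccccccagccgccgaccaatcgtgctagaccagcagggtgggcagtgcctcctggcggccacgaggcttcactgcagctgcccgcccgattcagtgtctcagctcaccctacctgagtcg

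A promoter was available for 38 of the 40 members, and 33 of them (86.8%) held at least 1 match in at least 1 of their windows. The share was 64.6% among 10470 tested genes with a promoter and 46.7% among 27025 genes in all. At least 2 matches were found in 68.4% of the members, against 32.5% of tested genes and 19.2% of all genes. Among the members that rose with KLA in both genotypes 22 of 27 (81.5%) held a match, against 11 of the 11 other members with a promoter. Of all tested genes that rose in both genotypes and had a promoter, 68.2% of 1298 held a match. A match describes these letters in a 300-base window, and genes with several annotated starts had several windows.

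Libraries differed in depth and among themselves. DKO libraries held 9705391 to 27189081 reads and LXR-positive libraries 6448579 to 17348717, so genotype goes with depth in these libraries. Nr1h2, the gene of LXRβ, stood at 275 to 399 normalized counts in the 12 DKO libraries and 438 to 821 in the 12 LXR-positive libraries. Nr1h3, the gene of LXRα, stood at 123 to 751 in DKO and 114 to 1267 in LXR-positive libraries. Such totals over whole genes do not resolve deleted exons. All 11 macrophage markers were detected in every group, and their summed level was 151029 to 450532 per library, against 24.4 to 87.3 for 8 lymphocyte markers, 110 to 200.4 for 8 dendritic cell markers, 3641 to 12471 for 11 neutrophil and precursor markers and 98.97 to 7333 for 8 stromal markers.

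In the LXR-positive KLA group, the library of mouse 2 was the lowest of 3 for 36 of the 39 members, by a median of 0.57 on the log2 scale against the mean of the other 2. Over the 1737 genes that rose with KLA in both genotypes the same library differed by a median of -0.05 and was the lowest for 43.7%. Its macrophage marker sum was 378012, against 450532 and 420342 in the libraries of mice 1 and 3. In the DKO KLA group the library of mouse 1 was the lowest for 30 members and that of mouse 3 the highest for 29. DKO mouse 2 gave the highest of 3 values for 22 members with vehicle, 22 with GW3965 and 25 with AcLDL, but for 7 with KLA. Its stromal marker sums were the highest of 3 in each of the 4 groups. They were 7333 with GW3965, 4146 with AcLDL, 3653 with vehicle and 1994 with KLA, where mouse 1 had 1992. Its neutrophil marker sums were also the highest of each group, 12471, 9247, 9998 and 9026 in the same order. With KLA the stromal sum of this mouse was close to that of mouse 1. In bulk RNA, more cells of a type and more RNA per cell cannot be told apart, and the part of these cells in the member values was not tested.

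**Figure D1:**
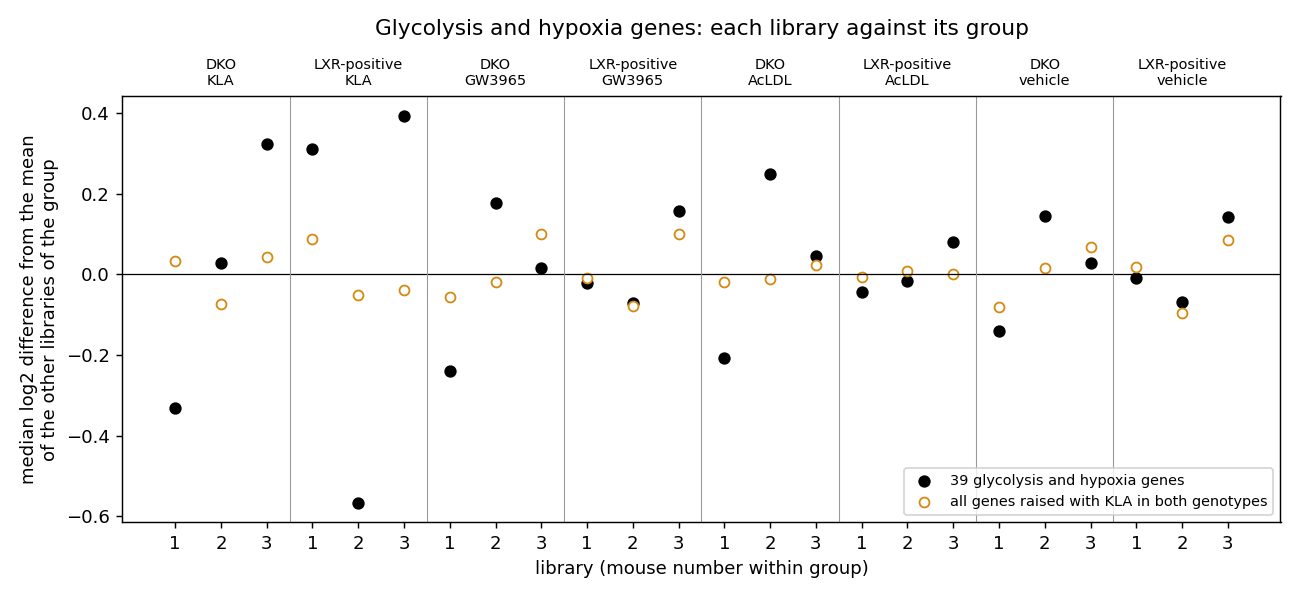
Median log2 difference (y axis) of each library from the mean of the other 2 libraries of its group, for 39 glycolysis and hypoxia genes (filled) and for the 1737 genes raised with KLA in both genotypes (open). Groups run along the x axis, numbered by mouse within a genotype. The LXR-positive KLA library of mouse 2 lies lowest for the glycolysis and hypoxia genes, at -0.57, while its median over all raised genes is -0.05.

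Without stimulation the members spanned a wide range of levels. Per kilobase of merged exon, Aldoa, which encodes aldolase A, was the highest of the genes counted without their copies, with 1594 ± 159 normalized counts per kilobase in DKO and 1778 ± 139 in LXR-positive vehicle libraries (mean ± SD, n = 3). Pkm, pyruvate kinase, followed at 1371 ± 86.8 in DKO and 1329 ± 67.4 in LXR-positive libraries, and Pgam1, phosphoglycerate mutase, at 860.4 ± 156 in DKO and 931 ± 200.03 in LXR-positive libraries. The ranges of mean ± SD of Aldoa and Pkm overlapped in DKO but not in LXR-positive libraries. Adm was the lowest, and next to it were Ak4, a mitochondrial adenylate kinase, with 5.22 ± 1.62 in DKO and 4.18 ± 2.29 in LXR-positive libraries, and Egln3, with 4.95 ± 0.607 and 5.02 ± 0.773 in the same order, whose levels overlapped. With KLA, Aldoa (4638 ± 562 in DKO and 4878 ± 955 in LXR-positive libraries) and Pkm (4178 ± 559.8 and 4529 ± 768) remained the highest 2 by mean of the genes counted alone, but their ranges of mean ± SD then overlapped. This order depends on copies: with the reads of its near-identical copy Pgam1-ps2 added, Pgam1 reached 4955 ± 995 in DKO and 5822 ± 1276 in LXR-positive KLA libraries, and 1682 ± 261 in DKO and 1716 ± 191 in LXR-positive vehicle libraries, above Pkm in all 4 groups and, by mean, above Aldoa in all but the LXR-positive vehicle libraries.

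**Figure D2:**
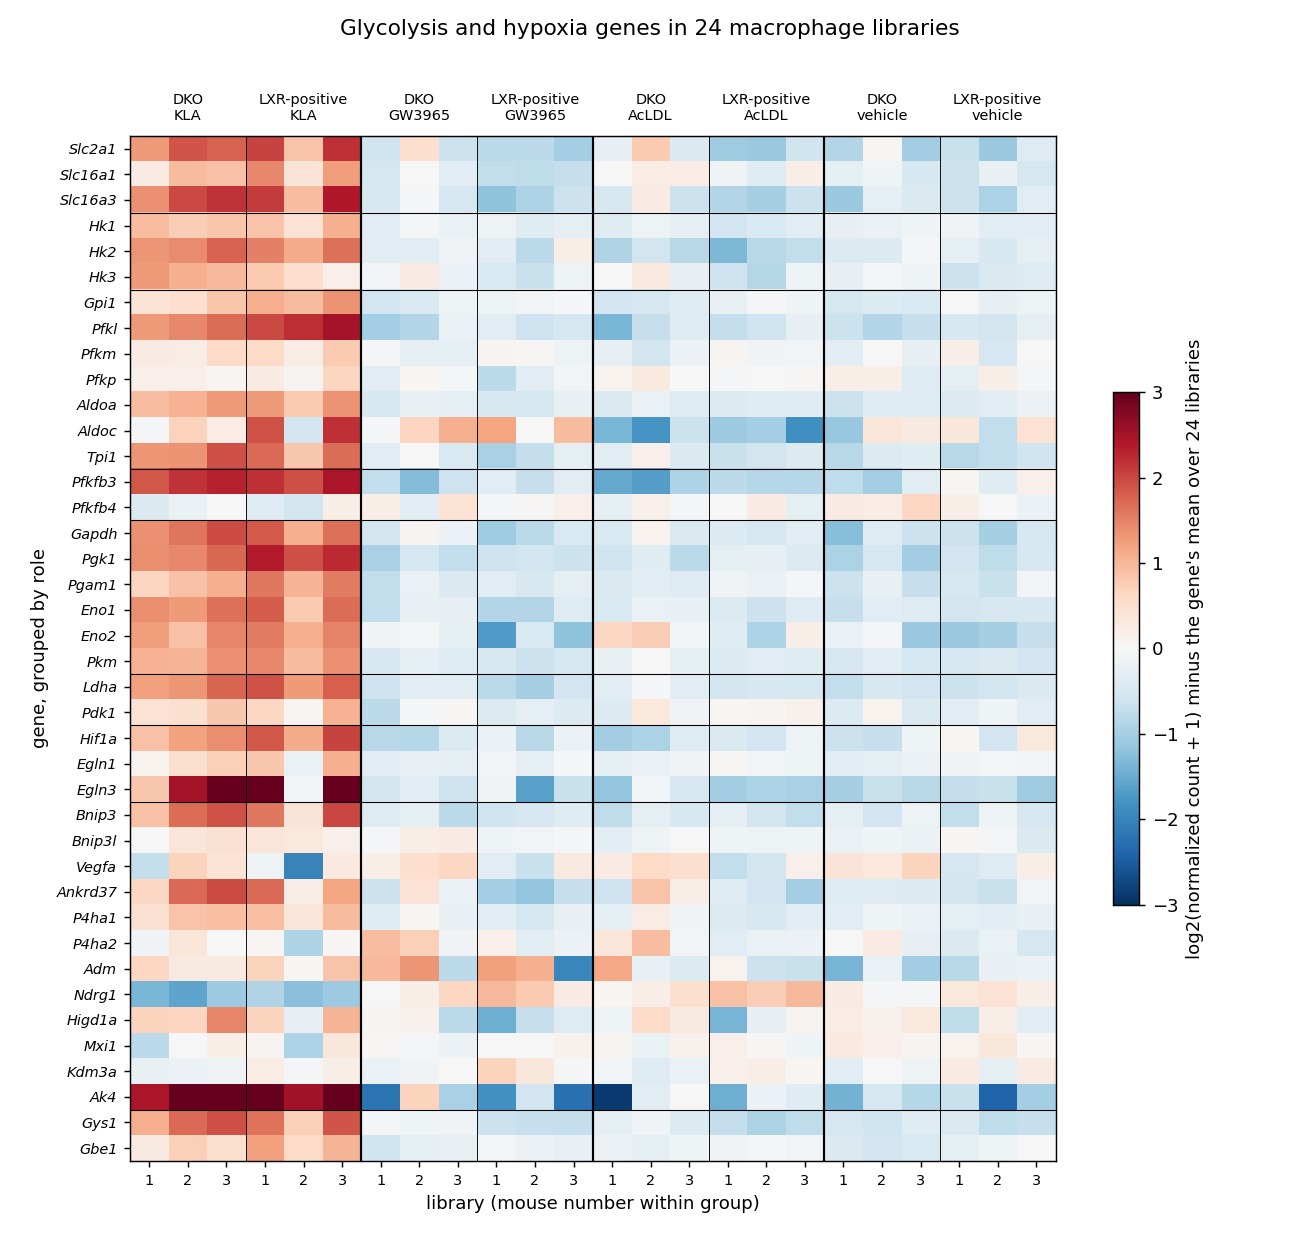
Level of each of the 40 genes (rows, grouped by role) in each of the 24 libraries (columns, grouped by treatment and genotype and numbered by mouse), as log2(normalized count + 1) minus the gene's mean over all libraries. Most rows are red in the 6 KLA columns, Ndrg1 is blue there, and the LXR-positive KLA column of mouse 2 is paler than its neighbours.

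KLA raised most of these genes in both genotypes. The glucose carrier Slc2a1, all 3 hexokinases, Pfkfb3, every enzyme of lower glycolysis, Ldha, Hif1a and Egln3 rose, whereas Ndrg1 fell. Of 39 tested members, 30 passed the test in DKO macrophages, 28 of them higher and 2 lower with KLA than with vehicle, and 30 passed in LXR-positive macrophages, 29 higher and 1 lower (limma-trend on log2(normalized count + 1), Benjamini-Hochberg adjusted p under 0.05 over all tested genes). The test called 25.2% of 15957 genes in DKO and 28.6% in LXR-positive macrophages. Genes called higher were 14% of all tested in DKO and 16.2% in LXR-positive macrophages, and genes called lower 11.1% and 12.4%. The median log2 fold change of the members was 1.39 in DKO and 1.46 in LXR-positive macrophages, against -0.004 and -0.003 over all tested genes. In DKO macrophages every KLA library exceeded every vehicle library for 31 members, which held for 23.6% of all tested genes, and in LXR-positive macrophages for 29 members, against 21.6% of all. The same 28 members rose in both genotypes and Ndrg1 fell in both. Macrophage marker sums were also higher with KLA, 297829 to 339920 against 189375 to 223832 with vehicle in DKO and 378012 to 450532 against 241576 to 314211 with vehicle in LXR-positive libraries. Neutrophil and precursor marker sums were 5056 to 9026 with KLA against 7054 to 9998 with vehicle in DKO libraries. In LXR-positive libraries they were 3641 to 4275 with KLA against 5291 to 6024 with vehicle. Ly6g was at 0 in LXR-positive KLA libraries but averaged only 1.06 with vehicle. Single markers did not all follow the sums, and Csf3r averaged 1819 with KLA against 1053 with vehicle in DKO libraries. Its means in LXR-positive libraries were 1612 and 1133. The part of macrophage or neutrophil marker changes in the member changes was not tested.

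**Figure D3:**
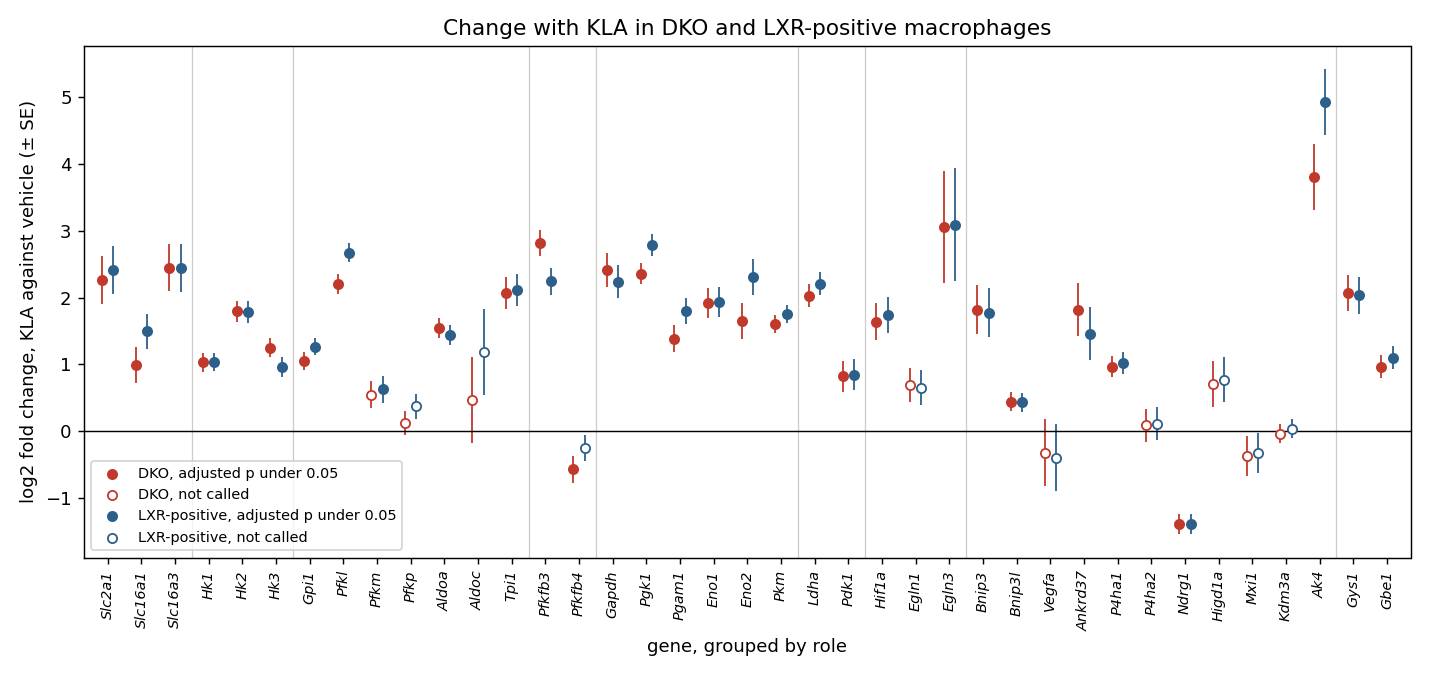
Log2 fold change of KLA against vehicle (y axis, ± SE) for the 39 tested genes, grouped by role along the x axis, in DKO (red, left of each pair) and LXR-positive macrophages (blue). Filled points passed an adjusted p of 0.05. Filled points lie above 0 for 28 genes in DKO and 29 in LXR-positive macrophages, and Ndrg1 lies near -1.39 in both.

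All 3 members that carry glucose or lactate across the plasma membrane rose. Slc2a1 (GRCm38 chromosome 4, 119108711 to 119137983), the GLUT1 glucose carrier, had 983, 1487 and 1383 normalized counts with KLA and 219, 420.2 and 196 with vehicle in DKO macrophages, and 1650.4, 732 and 1847 with KLA against 255, 187 and 305 with vehicle in LXR-positive macrophages, each in the order of mice 1, 2 and 3. The KLA and vehicle groups did not overlap in either genotype, although the LXR-positive KLA library of mouse 2 had less than the other 2. The log2 fold change was 2.27 ± 0.36 SE in DKO (limma adjusted p = 0.000695) and 2.42 ± 0.36 SE in LXR-positive macrophages (adjusted p = 0.000368). Slc16a3, the MCT4 carrier that exports lactate, had 863, 1308 and 1497 with KLA and 153, 274 and 246 with vehicle in DKO, and 1417, 626 and 1753 with KLA and 212, 171 and 265 with vehicle in LXR-positive macrophages. It rose 5.45-fold in DKO and 5.43-fold in LXR-positive macrophages (adjusted p = 0.000367 and 0.000317 in limma), with no overlap of the groups. Slc16a1, the MCT1 carrier, rose less, with log2 fold changes of 0.99 ± 0.27 SE in DKO and 1.49 ± 0.27 SE in LXR-positive macrophages (adjusted p = 0.0172 and 0.00129 in limma). Of the summed level of both lactate carriers per kilobase, Slc16a3 made up 78.9 ± 1.55% with KLA against 57.7 ± 7.78% with vehicle in DKO, and 74.2 ± 4.19% with KLA against 60.0 ± 8.20% with vehicle in LXR-positive macrophages (mean ± SD, n = 3).

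Hexokinases phosphorylate glucose and so trap it in the cell, and all 3 members rose in both genotypes. Hk2 (chromosome 6, 82725025 to 82774454), the inducible form, had 1996, 2128 and 2696 normalized counts with KLA and 597, 596 and 772 with vehicle in DKO, and 2256, 1721 and 2485 with KLA and 654, 563 and 643 with vehicle in LXR-positive macrophages. Every KLA library was above every vehicle library of its genotype, with log2 fold changes of 1.79 ± 0.16 SE in DKO and 1.78 ± 0.16 SE in LXR-positive macrophages (adjusted p = 1.00e-05 and 1.06e-05 in limma). Hk3, a form found in myeloid cells, had 4812, 4163 and 3849 with KLA and 1675, 1885 and 1809 with vehicle in DKO, and 3393, 2779 and 2210.1 with KLA and 1269, 1474 and 1510.2 with vehicle in LXR-positive macrophages. It rose 2.38-fold in DKO and 1.95-fold in LXR-positive macrophages (adjusted p = 7.47e-05 and 0.000463 in limma). Hk1, the form present in most tissues, had log2 fold changes of 1.03 in DKO and 1.03 in LXR-positive macrophages. By level per kilobase Hk3 remained the main hexokinase transcript, at 66.2 ± 4.51% of the 3 with KLA against 69.6 ± 2.06% with vehicle in DKO and 57.1 ± 8.27% against 65.5 ± 3.60% in LXR-positive macrophages. The share of Hk2 was 21.9 ± 4.31% with KLA against 15.7 ± 1.93% with vehicle in DKO and 27.3 ± 4.97% against 17.7 ± 1.75% in LXR-positive macrophages. No test was run on these shares.

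The 7 enzymes of upper glycolysis, which convert glucose 6-phosphate to triose phosphates, moved unequally. Of these, Gpi1, Pfkl, Aldoa and Tpi1 rose in both genotypes and Pfkm in LXR-positive macrophages, while Pfkp and Aldoc passed in neither. Pfkl (chromosome 10, 77986947 to 78010083), the liver form of phosphofructokinase, had 1676, 1867 and 2191 normalized counts with KLA and 441, 375 and 423 with vehicle in DKO, and 2723, 3205 and 3879.7 with KLA and 489, 469 and 568 with vehicle in LXR-positive macrophages. Its log2 fold changes of 2.20 ± 0.15 SE in DKO and 2.67 ± 0.15 SE in LXR-positive macrophages stood beside 0.55 ± 0.21 SE and 0.62 ± 0.21 SE for the muscle form Pfkm (adjusted p = 0.0744 and 0.0403 in limma) and 0.12 ± 0.18 SE and 0.37 ± 0.18 SE for the platelet form Pfkp (adjusted p = 0.682 and 0.156). Per kilobase, Pfkl made up 70.5 ± 1.93% of the 3 forms with KLA against 39.3 ± 5.06% with vehicle in DKO, and 78.1 ± 2.91% against 43.8 ± 2.03% in LXR-positive macrophages, without overlap of the libraries in either genotype. Tpi1, triose phosphate isomerase, had 3832, 3884 and 5913 with KLA and 863, 1161 and 1189.8 with vehicle in DKO, and 4986, 2712 and 4899.8 with KLA and 864, 926 and 1023 with vehicle in LXR-positive macrophages. It rose 4.19-fold in DKO and 4.32-fold in LXR-positive macrophages (adjusted p = 6.04e-05 and 4.67e-05 in limma). Gpi1, glucose 6-phosphate isomerase, had log2 fold changes of 1.05 in DKO and 1.27 in LXR-positive macrophages, and Aldoa 1.54 and 1.44. Aldoc, aldolase C, was low, with 37.4 normalized counts in the LXR-positive KLA library of mouse 2 against 211 and 257 in the other 2.

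Pfkfb3 and Pfkfb4 make and break down fructose 2,6-bisphosphate, the activator of phosphofructokinase, and Pfkfb3 favours its synthesis. Pfkfb3 (chromosome 2, 11471433 to 11554077) had 8826, 10919 and 12054 normalized counts with KLA and 1442, 1196 and 1926 with vehicle in DKO, and 11181, 9386 and 13136 with KLA and 2549, 1904 and 2691 with vehicle in LXR-positive macrophages. The groups were far apart in both genotypes, with log2 fold changes of 2.82 ± 0.20 SE in DKO and 2.24 ± 0.20 SE in LXR-positive macrophages (adjusted p = 1.44e-06 and 8.11e-06 in limma). Pfkfb4 averaged 274 ± 40.4 with KLA and 409 ± 64.8 with vehicle in DKO macrophages (log2 fold change -0.58 ± 0.20 SE, limma adjusted p = 0.0495), a fall that did not pass without any single library of the 6. In LXR-positive macrophages its means were 268 ± 73.9 with KLA and 315 ± 39.4 with vehicle (adjusted p = 0.355). Pfkfb3 was 96.1 ± 0.0943% of the summed level of both per kilobase with KLA against 70.3 ± 2.31% with vehicle in DKO, and 96.5 ± 0.404% against 82.7 ± 3.21% in LXR-positive macrophages.

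All 6 members of lower glycolysis, which convert triose phosphates to pyruvate and yield ATP, rose in both genotypes. Gapdh (chromosome 6, 125161715 to 125166467), glyceraldehyde 3-phosphate dehydrogenase and a common reference gene, had 10067, 11838 and 15306 normalized counts with KLA and 1622, 2979 and 2523 with vehicle in DKO, and 13991, 8155 and 12349.6 with KLA and 2488, 1966 and 2738 with vehicle in LXR-positive macrophages. It was 5.31-fold higher with KLA in DKO and 4.72-fold higher in LXR-positive macrophages (adjusted p = 3.10e-05 and 4.87e-05 in limma), with no overlap. Pgk1 (chromosome X, 106187100 to 106203699), whose promoter is printed above, had 5686, 5803 and 7105 with KLA and 1103, 1506 and 1049 with vehicle in DKO, and 11109, 8224 and 10123 with KLA and 1438, 1255 and 1547 with vehicle in LXR-positive macrophages. The change was 5.12-fold in DKO and 6.91-fold in LXR-positive macrophages (adjusted p = 1.12e-06 and 2.99e-07 in limma).

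Pgam1 counts were 3774, 4468 and 5086 with KLA and 1542, 2063 and 1511 with vehicle in DKO, and 7213, 4885 and 7148 with KLA and 1707, 1536 and 2292 with vehicle in LXR-positive macrophages (log2 fold changes 1.39 ± 0.20 SE and 1.80 ± 0.20 SE). For the ubiquitous enolase Eno1 they were 12797, 11711 and 15296 with KLA and 2999.6, 3801 and 3723 with vehicle in DKO, and 17142, 8299 and 15384 with KLA and 3323, 3403 and 3442 with vehicle in LXR-positive macrophages. Both genes were separated between KLA and vehicle in each genotype, Eno1 by log2 fold changes of 1.92 ± 0.22 SE in DKO and 1.94 ± 0.22 SE in LXR-positive macrophages. Eno2, the enolase form known from neurons, had 288, 222 and 335 with KLA and 105, 118 and 55.5 with vehicle in DKO, and 355, 252 and 342 with KLA and 54.7, 59.9 and 74.5 with vehicle in LXR-positive macrophages (log2 fold changes 1.64 ± 0.27 SE and 2.30 ± 0.27 SE). Although it rose, it stayed a small part of the enolases per kilobase, 2.36 ± 0.208% with KLA against 2.98 ± 1.16% with vehicle in DKO and 2.71 ± 0.558% against 2.08 ± 0.298% in LXR-positive macrophages. Pkm had 19480.2, 19085 and 24119.8 with KLA and 6665, 7351 and 6547 with vehicle in DKO, and 25309, 18243 and 24396 with KLA and 6663, 6971 and 6298 with vehicle in LXR-positive macrophages. It rose 3.03-fold in DKO and 3.38-fold in LXR-positive macrophages, and gene totals do not separate its M1 and M2 splice forms.

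Some of these genes have processed copies elsewhere in the genome that a counter of short reads can share with the gene. Gapdh had 75 copies of at least 95% identity over at least 300 bases, whose summed counts were 30.4 to 75.3% of those of the gene, and the sum of gene and copies rose by 2.32 on the log2 scale in DKO and 2.20 in LXR-positive macrophages. Pgam1 had 1, Pgam1-ps2, at 67.4 to 136% of the gene, and the sum rose by 1.55 and 1.74. Eno1 copies reached 27.7% of the gene, with sums that rose by 2.02 and 1.94, and the single Ak4 copy reached 72.9 normalized counts, with sums that rose by 4.00 and 4.99, in DKO and LXR-positive macrophages in that order. The levels of these 4 genes are therefore uncertain. No source states whether reads were counted by strand, so values are also uncertain for 11 members that overlap an expressed gene on the other strand, by 18 bases in Pfkm to 748 in Pfkp. They are Hk3, Gpi1, Pfkm, Pfkp, Tpi1, Gapdh, Hif1a, Ankrd37, Higd1a, Mxi1 and Gys1.

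Both members that set the fate of pyruvate rose. Ldha (chromosome 7, 46841475 to 46855627), which makes lactate and whose printed promoter window held 5 matches, had 6804, 7307 and 9752 normalized counts with KLA and 1752, 2104 and 1949 with vehicle in DKO, and 10903, 7110.2 and 10171 with KLA and 1856, 1999 and 2148 with vehicle in LXR-positive macrophages. The lowest KLA library was above the highest vehicle library in each genotype, and the log2 fold changes were 2.03 ± 0.17 SE in DKO and 2.21 ± 0.17 SE in LXR-positive macrophages (adjusted p = 5.74e-06 and 2.73e-06 in limma). Pdk1, the kinase that inhibits pyruvate dehydrogenase, had 590.3, 604 and 758 with KLA and 326, 467 and 322 with vehicle in DKO, and 674, 451 and 899 with KLA and 343, 400.0 and 342 with vehicle in LXR-positive macrophages. This rise was smaller, 0.82 ± 0.23 SE in DKO and 0.85 ± 0.23 SE in LXR-positive macrophages on the log2 scale (adjusted p = 0.0201 and 0.0148 in limma). The KLA and vehicle libraries of Pdk1 did not overlap in either genotype.

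Hif1a (chromosome 12, 73901375 to 73947530) itself rose. It had 9183, 11474 and 13191 normalized counts with KLA and 3191, 3119 and 4605 with vehicle in DKO, and 18313, 10757 and 20293 with KLA and 5175, 3346 and 6244 with vehicle in LXR-positive macrophages, without overlap in either genotype. The log2 fold changes were 1.64 ± 0.27 SE in DKO and 1.74 ± 0.27 SE in LXR-positive macrophages (adjusted p = 0.000937 and 0.000558 in limma). Egln3 (chromosome 12, 54178981 to 54203860), the HIF hydroxylase PHD3, had 42.7, 139.6 and 263 with KLA and 11.6, 14.8 and 13.1 with vehicle in DKO, and 214, 22.5 and 355 with KLA and 14.3, 14.8 and 10.997 with vehicle in LXR-positive macrophages. Its KLA libraries spread more than those of any other member, 6.15-fold from lowest to highest in DKO and 15.8-fold in LXR-positive macrophages. The log2 fold changes of 3.06 ± 0.85 SE in DKO and 3.09 ± 0.85 SE in LXR-positive macrophages passed the test (adjusted p = 0.020 and 0.0166 in limma), and without the LXR-positive KLA library of mouse 2 the value in LXR-positive macrophages was 4.28. Egln1, the hydroxylase PHD2, averaged 595 ± 124 with KLA and 363 ± 17.8 with vehicle in DKO, and 679 ± 271 with KLA and 406 ± 5.41 with vehicle in LXR-positive macrophages, and passed in neither (adjusted p = 0.0707 and 0.0817). Per kilobase, Egln3 was 22.7 ± 11.1% of both hydroxylases with KLA against 4.67 ± 0.510% with vehicle in DKO, and 23.3 ± 14.2% against 4.25 ± 0.621% in LXR-positive macrophages.

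**Figure D4:**
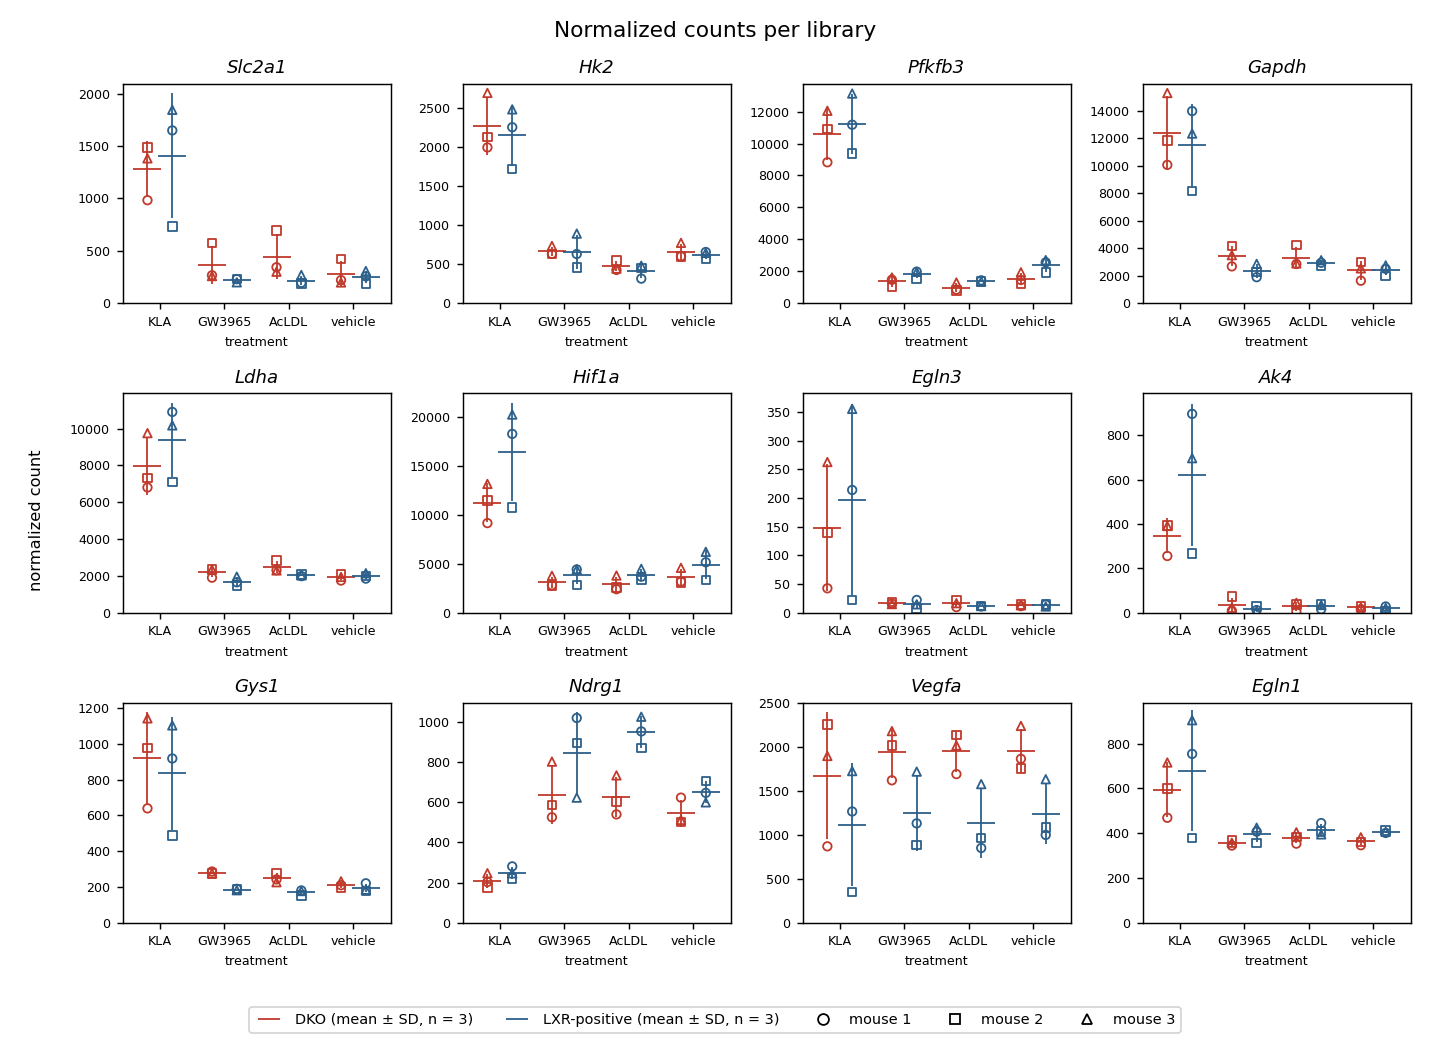
Normalized counts (y axes, each from 0) per library for 12 of the genes under KLA, GW3965, AcLDL and vehicle, in DKO (red) and LXR-positive macrophages (blue). Symbols are mice 1 to 3 of each genotype, which are different animals in the 2 genotypes, and bars are mean ± SD (n = 3). The KLA groups of Slc2a1 to Gys1 lie above all vehicle libraries of their genotype, Ndrg1 lies below, and the square of LXR-positive mouse 2 is the lowest of its KLA group in each of these panels.

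The other hypoxia-inducible members were divided. Of 11 tested, 5 rose in both genotypes, Ndrg1 fell in both, and Vegfa, P4ha2, Higd1a, Mxi1 and Kdm3a passed in neither. Ak4 (chromosome 4, 101419277 to 101466995) changed most, with 256, 394 and 391 normalized counts with KLA and 16.4, 31.5 and 24.8 with vehicle in DKO, and 896, 268 and 697 with KLA and 28.6, 7.78 and 21.99 with vehicle in LXR-positive macrophages. It was 14.0-fold higher in DKO and 30.4-fold higher in LXR-positive macrophages (adjusted p = 0.000147 and 1.99e-05 in limma). Bnip3, which marks mitochondria for autophagy, had 578, 1008 and 1179.6 with KLA and 259.8, 211 and 284 with vehicle in DKO, and 945, 410.3 and 1257 with KLA and 189, 287 and 222 with vehicle in LXR-positive macrophages (log2 fold changes 1.82 ± 0.37 SE and 1.77 ± 0.37 SE). Its relative Bnip3l changed little, by 0.44 ± 0.14 SE in DKO and 0.43 ± 0.14 SE in LXR-positive macrophages (adjusted p = 0.0400 and 0.0405 in limma). Ankrd37, an ankyrin repeat gene, had 52.6, 112 and 133 with KLA and 25.6, 25.5 and 25.2 with vehicle in DKO, and 112, 38.9 and 77.4 with KLA and 22.6, 21.0 and 31.8 with vehicle in LXR-positive macrophages (log2 fold changes 1.82 ± 0.40 SE and 1.46 ± 0.40 SE). The KLA and vehicle libraries of both Bnip3 and Ankrd37 were separate in each genotype, least so for the LXR-positive KLA library of mouse 2. P4ha1, a subunit of the enzyme that hydroxylates collagen prolines, rose 1.95-fold in DKO and 2.03-fold in LXR-positive macrophages, while its relative P4ha2 had log2 fold changes of 0.09 ± 0.25 SE and 0.11 ± 0.25 SE.

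Ndrg1 (chromosome 15, 66929321 to 66969640), a gene known to be induced by hypoxia and stress, went the other way. It had 203, 175 and 247 normalized counts with KLA and 624, 501 and 513 with vehicle in DKO, and 280.5, 220.1 and 246 with KLA and 647, 706 and 599.9 with vehicle in LXR-positive macrophages. Every KLA library was below every vehicle library, and the log2 fold change was -1.39 ± 0.15 SE in DKO and -1.39 ± 0.15 SE in LXR-positive macrophages (adjusted p = 4.06e-05 and 3.82e-05 in limma). Vegfa, the vascular growth factor and a classical HIF target, did not pass, with 870.5, 2262 and 1901 with KLA and 1869, 1758 and 2244 with vehicle in DKO, and 1268, 352 and 1729 with KLA and 1000.5, 1084 and 1636 with vehicle in LXR-positive macrophages. The groups overlapped in both genotypes, and the log2 fold changes of -0.33 and -0.40 had 95% intervals of -1.41 to 0.76 in DKO and -1.49 to 0.69 in LXR-positive macrophages. Mxi1, a MYC antagonist, and Kdm3a, a histone demethylase, had log2 fold changes of -0.37 and -0.04 in DKO and -0.33 and 0.04 in LXR-positive macrophages. Higd1a, a mitochondrial protein gene, had 0.70 ± 0.34 SE in DKO and 0.77 ± 0.34 SE in LXR-positive macrophages (adjusted p = 0.157 and 0.113 in limma).

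Both glycogen genes rose. Gys1 (chromosome 7, 45434844 to 45456619), whose promoter window holds no match, had 639, 976 and 1143 normalized counts with KLA and 209, 198 and 231 with vehicle in DKO, and 918, 487 and 1104 with KLA and 220.1, 176 and 185 with vehicle in LXR-positive macrophages. It rose 4.19-fold in DKO and 4.09-fold in LXR-positive macrophages (adjusted p = 0.000181 and 0.000182 in limma), without overlap. Gbe1, the glycogen branching enzyme, averaged 427 ± 65.9 with KLA and 217 ± 10.4 with vehicle in DKO, and 597 ± 134 with KLA and 275 ± 30.3 with vehicle in LXR-positive macrophages (log2 fold changes 0.96 ± 0.17 SE and 1.10 ± 0.17 SE).

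By role, the genes of glycolysis, transport and glycogen rose in 21 of 25 cases in DKO macrophages, with 1 lower, and in 22 of 25 in LXR-positive macrophages, with medians of 1.60 and 1.78 on the log2 scale. Hif1a, the hydroxylases and the hypoxia-inducible members rose in 7 of 14 cases and fell in 1 in each genotype, with medians of 0.70 in DKO and 0.71 in LXR-positive macrophages. Calls of 25 of the 30 members in each genotype held without each library in turn. In DKO macrophages the calls that did not were Slc16a1 (lost without vehicle library 3 or KLA library 2 or 3, limma adjusted p up to 0.0664), Pdk1 (vehicle library 1 or 3 or KLA library 3, up to 0.0811), Egln3 (vehicle library 1 or KLA library 2 or 3, up to 0.0870), Bnip3l (any but KLA library 1, up to 0.149) and Pfkfb4 (up to 0.166). In LXR-positive macrophages they were Pfkm (vehicle library 2 or 3 or KLA library 1 or 3, up to 0.149), Pdk1 (KLA library 3, 0.0587), Egln3 (KLA library 1 or 3, up to 0.0691), Bnip3l (vehicle library 2 or 3 or KLA library 1 or 2, up to 0.153) and Ankrd37 (vehicle library 2 or KLA library 1, up to 0.0643). Without the LXR-positive KLA library of mouse 2, 32 members were called in LXR-positive macrophages, against 28.1% of all tested genes in that fit. Aldoc (2.05, limma adjusted p = 0.00763), Egln1 (1.02, 0.000865) and Higd1a (1.13, 0.0195) were then called higher by these log2 fold changes, Bnip3l was not, and Vegfa had 0.29 (adjusted p = 0.578).

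Other genes of the same pathway, from lists of glycolysis and pyruvate, HIF pathway, hypoxia target and glycogen genes, were read beside the members. Of 59 tested, 17 were higher and 6 lower with KLA in DKO macrophages, and 23 were higher and 8 lower in LXR-positive macrophages, with median log2 fold changes of 0.36 and 0.51. Of all tested genes 14% were called higher and 11.1% lower in DKO, and 16.2% higher and 12.4% lower in LXR-positive macrophages. Among the genes called, the largest rises in DKO macrophages were those of Slc2a6, a glucose carrier of lysosomes (1155 ± 138 with KLA against 192 ± 56.8 with vehicle, log2 fold change 2.63 ± 0.32 SE, limma adjusted p = 8.56e-05), and Mif, macrophage migration inhibitory factor, whose copies in the genome were not examined here (634 ± 137 against 109.6 ± 24.5, 2.53 ± 0.26 SE, 2.41e-05). In LXR-positive macrophages they were those of Lox, lysyl oxidase (1796 ± 204 with KLA against 109.9 ± 65.7 with vehicle, log2 fold change 4.16 ± 0.58 SE, limma adjusted p = 0.000224), and Mif (772 ± 91.6 against 124 ± 49.0, 2.68 ± 0.26 SE, 1.46e-05). Angptl4, an inhibitor of lipoprotein lipase that is also induced by hypoxia, had the largest fall, to 1.70 ± 0.243 with KLA against 72.9 ± 11.4 with vehicle in DKO and 4.45 ± 3.09 against 76.8 ± 19.3 in LXR-positive macrophages (adjusted p = 9.44e-06 and 3.27e-05 in limma). Next among the genes called lower were Epas1, which encodes HIF-2α, in DKO macrophages (43.2 ± 11.8 against 129 ± 52.1, log2 fold change -1.51 ± 0.35 SE, adjusted p = 0.00787), and Pdk4, another pyruvate dehydrogenase kinase, in LXR-positive macrophages (3.37 ± 3.80 against 21.3 ± 8.89, -2.76 ± 0.68 SE, 0.00966). Epas1 in LXR-positive macrophages had 34.1 ± 10.3 against 52.0 ± 13.6 (-0.60 ± 0.35 SE, limma adjusted p = 0.224). Pdk4 in DKO macrophages had 6.47 ± 1.37 against 30.1 ± 13.7 (-1.95 ± 0.68 SE, limma adjusted p = 0.0548). The KLA response differed between genotypes for 0 of these 59 genes in limma, where 0.0689% of all tested genes passed.

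Whether the response to KLA depended on LXR was tested as the difference of the 2 log2 fold changes, DKO minus LXR-positive. No member passed in limma, where 0.0689% of all tested genes did, and 1 had an unadjusted p under 0.05, against 5.36% of all genes. edgeR and DESeq2, which called 0.0877% and 0.307% of all genes, called 0 members, and the authors' deposited table of the same interaction called 0, with a lowest adjusted p of 0.79. The member differences had a median of -0.04 and ran from -1.12 to 0.58. For Pfkl the difference was -0.47 ± 0.21 SE (unadjusted p = 0.0419, limma adjusted p = 0.863), with a 95% interval of -0.92 to -0.02. The highest value was that of Pfkfb3, 0.58 ± 0.28 SE, with an interval of -0.03 to 1.19. For the 2 members called in 1 genotype alone the difference was -0.32 ± 0.28 SE for Pfkfb4 and -0.08 ± 0.29 SE for Pfkm (adjusted p = 0.893 and 0.977 in limma). Intervals for other main members ran from -1.26 to 0.96 for Slc2a1, -0.71 to 0.34 for Ldha, -0.49 to 0.51 for Hk2 and -0.94 to 0.75 for Hif1a to -2.64 to 2.57 for Egln3 and -2.64 to 0.39 for Ak4.

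With GW3965 none of the 39 members passed in either genotype. Of all tested genes limma called 0.00621% in DKO and 0.267% in LXR-positive macrophages. Among members 3 had an unadjusted p under 0.05 in DKO and 0 in LXR-positive macrophages, against 5.83% and 6.13% of all tested genes, and edgeR and DESeq2 called 0 in both. These tools called 0% and 0.161% of all genes in DKO and 0.242% and 0.534% in LXR-positive macrophages. The log2 fold changes ran from -0.42 to 0.72 in DKO and from -0.55 to 0.70 in LXR-positive macrophages, with medians of 0.07 and -0.05 against 0.002 and -0.02 over all tested genes. The smallest unadjusted p in DKO macrophages belonged to Gys1, with 286, 275 and 276 normalized counts with GW3965 and 209, 198 and 231 with vehicle. These DKO groups did not overlap, yet the log2 fold change of 0.39 ± 0.12 SE had a limma adjusted p of 0.800. In LXR-positive macrophages Gys1 had 189, 185 and 181 with GW3965 and 220.1, 176 and 185 with vehicle. Slc2a1 had 265, 571 and 257 with GW3965 and 219, 420.2 and 196 with vehicle in DKO, and 228, 232 and 197 with GW3965 and 255, 187 and 305 with vehicle in LXR-positive macrophages, where the 95% interval of the log2 fold change was -0.89 to 0.57. The intervals in LXR-positive macrophages were -0.52 to 0.03 for Ldha, -0.40 to 0.47 for Hk2, -0.25 to 0.15 for Pkm and -0.86 to 0.23 for Hif1a. The response differed between genotypes for no member in limma, edgeR or DESeq2 (0.118%, 0.0993% and 0.341% of all tested genes), with 2 at an unadjusted p under 0.05, Gys1 and Ldha, against 4.67% of all. The difference DKO minus LXR-positive was above 0 for 31 of 39 members, with a median of 0.12, against 51.7% of all tested genes and a median of 0.01. For KLA it was above 0 for 12 members and for AcLDL for 26, against 50.1% and 49.4% of all tested genes. Single libraries shifted many members together, and DKO GW3965 library 2 was the highest of 3 for 22 members. These counts therefore do not stand for 39 separate results. The authors' deposited table called 0 members for the difference in the GW3965 response.

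With AcLDL none of the members passed either. Limma called 0.125% of all tested genes in DKO and 0.225% in LXR-positive macrophages. In DKO macrophages 10 of 39 members had an unadjusted p under 0.05, against 6.26% of all tested genes. In LXR-positive macrophages 4 of 39 did, against 12.3% of all. Pfkfb3 had 837, 775 and 1286 normalized counts with AcLDL and 1442, 1196 and 1926 with vehicle in DKO, and 1419, 1342 and 1347 with AcLDL and 2549, 1904 and 2691 with vehicle in LXR-positive macrophages. The LXR-positive AcLDL libraries all lay below the vehicle libraries while the DKO groups overlapped, and the log2 fold changes were -0.66 ± 0.21 SE in DKO and -0.78 ± 0.21 SE in LXR-positive macrophages (adjusted p = 0.618 and 0.173 in limma). Hk2 had 424, 543 and 441 with AcLDL and 597, 596 and 772 with vehicle in DKO, and 313, 447 and 478 with AcLDL and 654, 563 and 643 with vehicle in LXR-positive macrophages. Every AcLDL library of Hk2 lay below every vehicle library of its genotype, with log2 fold changes of -0.48 ± 0.17 SE in DKO and -0.61 ± 0.17 SE in LXR-positive macrophages (adjusted p = 0.686 and 0.188 in limma). Ndrg1 had 954, 871 and 1027 with AcLDL and 647, 706 and 599.9 with vehicle in LXR-positive macrophages, 0.55 ± 0.13 SE on the log2 scale (limma adjusted p = 0.141), and 539.9, 605 and 734 against 624, 501 and 513 in DKO macrophages, 0.19 ± 0.13 SE. In DKO macrophages the smallest unadjusted p was that of Ldha, with 2314, 2839 and 2299.8 with AcLDL and 1752, 2104 and 1949 with vehicle (log2 fold change 0.36 ± 0.10 SE, limma adjusted p = 0.582). edgeR called 0 members in either genotype (0.112% of all genes in DKO and 0.125% in LXR-positive macrophages) and DESeq2 0 in DKO (0.487%). With the mouse as a block Pfkfb3 was called in LXR-positive macrophages, and DESeq2 called Pfkfb3 and Ndrg1 there, against 1.54% and 1.68% of all tested genes. The response differed between genotypes for 0 members in limma, edgeR and DESeq2 (0.025%, 0.025% and 0.0749% of all tested genes) and in the authors' deposited table, with 1 at an unadjusted p under 0.05, Ldha, against 3.39% of all. Angptl4 was the single one of 58 other pathway genes called with AcLDL, higher in both genotypes.

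Between genotypes few members differed. With vehicle, DKO and LXR-positive macrophages differed for 0 of 39 members in limma (0.316% of all tested genes), with 5 at an unadjusted p under 0.05, against 12.2% of all, and 0 in edgeR and DESeq2 (0.285% and 1.89% of all). Under KLA 4 of 39 passed (10.3%, against 6.87% of all tested genes), Hk3 higher in DKO and Gpi1, Pfkl and Pgk1 lower. Under GW3965 1 passed, Gys1 higher (9.64% of all tested genes). Under AcLDL 4 passed (10.3%, against 8.6% of all), Vegfa and Gys1 higher and Gpi1 and Ndrg1 lower. These shares were near or below those of all tested genes. The comparisons under KLA, GW3965 and AcLDL use different libraries of the same 6 mice, and genotype goes with depth. With all libraries thinned to the same number of reads, Gys1 under AcLDL did not pass (log2 fold change 0.51, limma adjusted p = 0.052), and the other 8 calls were kept. Markers of cell types also moved with genotype. Macrophage marker sums were lower in every DKO library, 297829 to 339920 in DKO against 378012 to 450532 in LXR-positive libraries under KLA, 203307 to 265180 against 281785 to 319299 under GW3965, 151029 to 196719 against 238574 to 272371 under AcLDL and 189375 to 223832 against 241576 to 314211 with vehicle. Single macrophage markers did not all follow their sum, of which Lyz2 was the largest part. Lyz2 averaged 117717 in DKO against 172803 in LXR-positive vehicle libraries. Cd68 means were higher in DKO, at 6052 against 4988 with vehicle and 3729 against 2471 under KLA. They were 6966 against 4669 under GW3965 and 7319 against 4972 under AcLDL. Neutrophil and precursor sums were higher in every DKO library, 5056 to 9026 in DKO against 3641 to 4275 in LXR-positive libraries under KLA, 9085 to 12471 against 4646 to 7492 under GW3965, 6921 to 9247 against 3970 to 4505 under AcLDL and 7054 to 9998 against 5291 to 6024 with vehicle. Stromal sums overlapped between genotypes under KLA, AcLDL and vehicle and were 1405 to 7333 in DKO against 252 to 708 in LXR-positive libraries under GW3965. The part of these cells in the genotype calls was not tested.

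**Figure D5:**
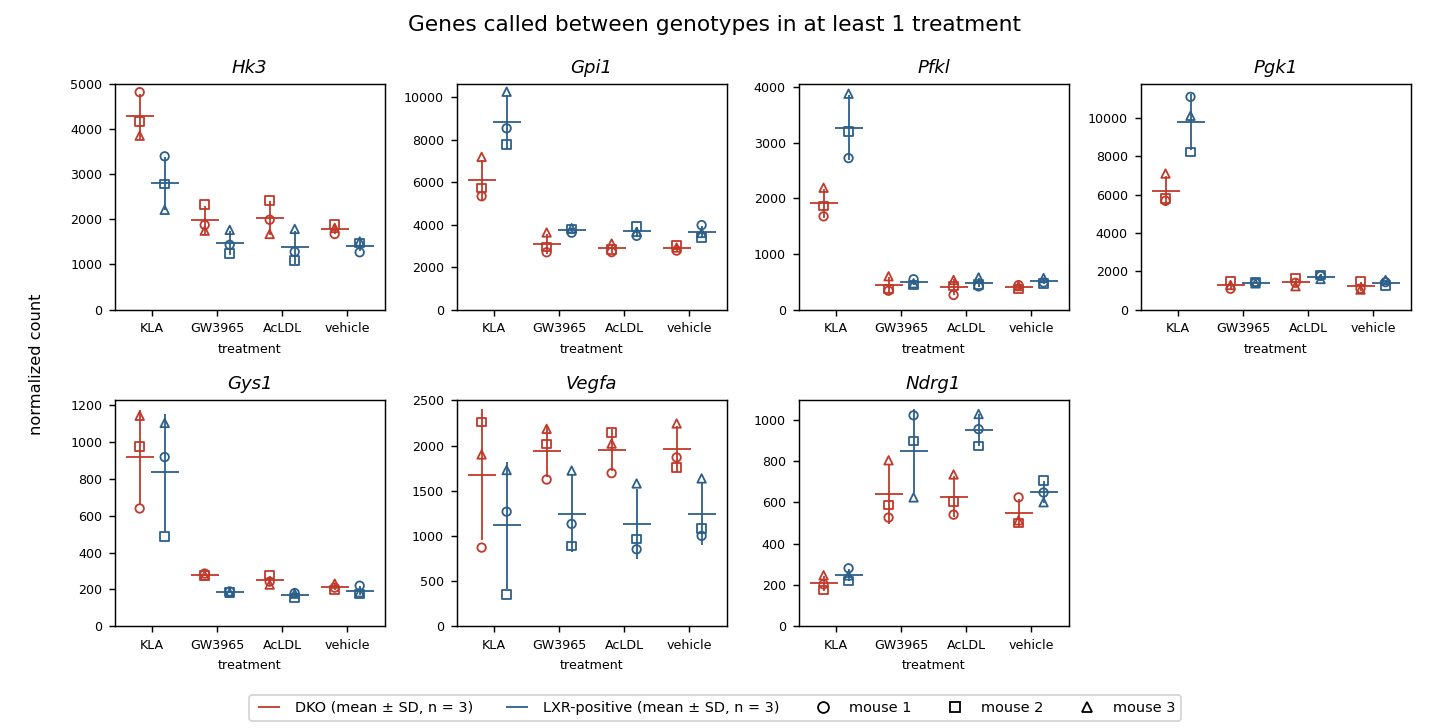
Normalized counts (y axes, each from 0) per library for the 7 genes that passed between genotypes under at least 1 treatment, in DKO (red) and LXR-positive macrophages (blue), with mean ± SD (n = 3) and a symbol for each mouse. DKO libraries of Gpi1, Pfkl and Pgk1 all lie below the LXR-positive libraries under KLA, and those of Hk3 all lie above.

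Under KLA, Pfkl had 1676, 1867 and 2191 normalized counts in DKO and 2723, 3205 and 3879.7 in LXR-positive macrophages, without overlap (log2 fold change -0.77 ± 0.15 SE, limma adjusted p = 0.0149). Pgk1 had 5686, 5803 and 7105 in DKO and 11109, 8224 and 10123 in LXR-positive macrophages (-0.66 ± 0.16 SE, adjusted p = 0.0332). Gpi1 had 5337, 5732 and 7189.7 in DKO and 8532, 7768 and 10252 in LXR-positive macrophages (-0.54 ± 0.13 SE, adjusted p = 0.0338). All 3 were thus lower in every DKO library, and Hk3 was higher in every DKO library, with 4812, 4163 and 3849 against 3393, 2779 and 2210.1 in LXR-positive macrophages (0.63 ± 0.15 SE, adjusted p = 0.0295). Each of these calls was lost without at least 1 library. Pfkl was lost without DKO KLA library 1 or 2 (limma adjusted p up to 0.0605), Pgk1 without any but LXR-positive KLA library 2 (up to 0.115), Gpi1 without LXR-positive KLA library 1 or 3 or DKO KLA library 1 or 2 (up to 0.116) and Hk3 without any but LXR-positive KLA library 1 (up to 0.0978).

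Gys1 had 286, 275 and 276 normalized counts in DKO and 189, 185 and 181 in LXR-positive macrophages under GW3965 (log2 fold change 0.59 ± 0.12 SE, limma adjusted p = 0.0136), and 242, 278 and 226 against 180.2, 153 and 177 under AcLDL (0.55 ± 0.13 SE, adjusted p = 0.0299). Its DKO libraries were above the LXR-positive ones under both treatments, whereas with vehicle they stood at 209, 198 and 231 in DKO and 220.1, 176 and 185 in LXR-positive macrophages and overlapped. Under AcLDL, Gpi1 had 2708, 2831 and 3113 in DKO and 3474, 3906 and 3660.5 in LXR-positive macrophages (-0.35 ± 0.09 SE, limma adjusted p = 0.0343). Ndrg1 had 539.9, 605 and 734 in DKO and 954, 871 and 1027 in LXR-positive macrophages (-0.61 ± 0.13 SE, adjusted p = 0.0202). Vegfa had 1695, 2144 and 2022 in DKO and 852, 965 and 1580.5 in LXR-positive macrophages (0.83 ± 0.23 SE, adjusted p = 0.0459). All 3 were separated between genotypes under AcLDL, and Vegfa was also higher in every DKO library with vehicle, at 1869, 1758 and 2244 against 1000.5, 1084 and 1636, where the log2 difference of 0.68 ± 0.24 SE did not pass (adjusted p = 0.301). The Gys1 call under GW3965 was lost without DKO library 1 (limma adjusted p = 0.0540). Under AcLDL Gpi1, Ndrg1 and Gys1 were each lost without any of the 6 libraries but DKO library 3 and Vegfa without any but LXR-positive library 3, with adjusted p up to 0.124 for Gpi1, 0.0916 for Ndrg1, 0.134 for Gys1 and 0.167 for Vegfa.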

How the data were processed

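RNA from 24 macrophage libraries was sequenced as single 50-base reads with a stranded total RNA kit from 500 ng of RNA, per the labels' protocols. For each of the 3 treatments the authors deposited a table with the vehicle libraries alongside, in normalized counts, a signal made by dividing each gene count by 1 size factor per library. The build GRCm38 and the tools kallisto and DESeq2 are named, per the submitters' processing notes. Their versions, the annotation and the strand setting are not given in the sources used for this work. The tables also hold the authors' log2 fold change, Wald statistic (a score, not used) and p-value with its adjusted value for the interaction of treatment and genotype, and these deposited values are quoted only where named. Values in the deposited tables were whole reads within 0.01 read after multiplying by a factor per library, which gave the depth. Vehicle columns were identical in the 3 tables.

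Log2(normalized count + 1) was tested with limma 3.58.1 (limma-trend, R 4.3.3) over the 12 libraries of a table, with 4 group means, for genes with at least 10 normalized counts in at least 3 libraries, and p-values were adjusted by Benjamini-Hochberg over all genes tested. The vehicle genotype contrast used the GW3965 table. A fold change on this scale understates that of low genes. Alternatives were a pseudocount of 8, no filter, TMM and quantile scaling, edgeR 4.0.16 and DESeq2 1.42.0 on the recovered reads, the mouse as a block, other sets of libraries, thinned reads and each library left out. The fits were tested on simulated data. Gene lengths are merged exons of the reference annotation, whose gene start and end were the same for 42541 of 46734 genes found in it. Copies were found by aligning transcripts.

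Members, gene lists and tests were chosen with earlier results of these data known. Values per library are given for the 16 members with the largest change with KLA, 11 others named for their role, and every member called in another contrast. Other pathway genes are named by the 2 largest changes with KLA among those called in each direction. Replicate numbers mark the same mouse within a genotype, per the series' design text. Deviations of libraries of the same mouse from their group means had a median correlation of 0.279 over 36 pairs (0.0024 to 0.517, 34 over 0.1) across 9989 genes. Intervals are at the 95% level, and 3 mice per group limit the precision.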

Additional observations from a re-analysis of the deposited data

How the results depend on the processing

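No change in a member reversed its sign under any alternative while called. The count of members called with KLA stayed between 28 and 32 under every alternative that kept all libraries, and with each library left out it was 25 to 29 in DKO and 26 to 32 in LXR-positive macrophages. With the mouse as a replicate block it was 30 in DKO and 31 in LXR-positive macrophages, and 1 member was called with AcLDL in LXR-positive macrophages, where limma without the block called 0 and DESeq2 2. The block changed no other count of members by over 1.5 times. Calls between genotypes were less stable. Under KLA there were 4, against 2 with no filter, 2 with quantile scaling and 1 with only the groups compared. Under GW3965 there was 1, against 3 with quantile scaling, 3 with DESeq2 and 0 in a fit of all 24 libraries. Under AcLDL there were 4, against 2 with no filter, 8 with DESeq2, 1 in a fit of all 24 libraries and 1 with only the groups compared. Leaving out each library gave 0 to 4 under KLA, 0 to 4 under GW3965 and 0 to 6 under AcLDL. Of the 8 contrasts with 0 calls, only AcLDL in LXR-positive macrophages gained any under an alternative, and the cause of these shifts was not tested. Depth and 3 mice per group limit what low members such as Egln3, Ak4, Ankrd37 and Aldoc can show.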
